A study of Rattus norvegicus with 25 samples.

Results

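Ckm, Pygm, Pfkm, Eno3, Pgam2, Ampd1, Nt5c1a, Slc2a4 and Mb are the 9 genes described here, among 30547 genes in the table of gingival transcripts. They were chosen by name, with earlier results of these data known, as genes through which skeletal muscle stores, releases and takes up energy. Each row of the table that carried any of these names was used, with transcripts summed per gene. All 9 passed the filter on low values, which kept 16092 genes (a CPM, that is a count scaled to library size, of at least 2 in at least 1 library).

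Skeletal muscle meets a sudden demand for ATP from phosphocreatine first and from its own glycogen next. Creatine kinase passes phosphate from phosphocreatine to ADP, glycogen phosphorylase frees glucose units, and the muscle forms of the glycolytic enzymes turn these into pyruvate. AMP formed during heavy work is deaminated or dephosphorylated, glucose enters through an insulin-regulated transporter, and myoglobin stores oxygen in the fibre. Several of these enzymes have a separate gene for muscle and another for the rest of the body, and rat gingiva is a mucosa that borders the muscles of lip and cheek.

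RNA was sequenced from the gingiva of wild type Sprague-Dawley rats, labelled as 6 weeks old, in 5 groups of 5 rats with 1 library per rat. The Cur/ZNP gel, ZNP gel and Cur gel groups had experimental periodontitis and received hydrogel with curcumin and zinc oxide nanoparticles, with zinc oxide nanoparticles, or with curcumin, in 200 μL volumes placed in the periodontal pocket once a week for 4 weeks. The EP group had experimental periodontitis alone, and whether it received hydrogel without drug is not stated in the sources used here. Periodontitis was made by silk ligature at the upper first molars and smearing of Porphyromonas gingivalis on the thread. The Sham group received hydrogel as its control treatment. In the combined gel each agent was present at a lower concentration than in its single gel. The labels do not say how much of the bordering tissue was cut out with the gingiva.

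Depth ranged from 50690789 to 81791804 reads per library, and values are normalized counts, that is reads divided by a size factor of each library (0.492 to 1.31). Krt5, a keratin of the basal epithelium, had 34582 to 844927 normalized counts over the libraries. Transcripts of nasal glands (5 genes) held 21.8% of the reads of Sham 4, 16.6% of EP 3 and 20.5% of EP 4, and at most 0.103% of any other library. The labels give no batch, and p-values measure the spread between rats.

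Skeletal muscle transcripts were present in every library, at very unequal levels. The 9 genes together held from 0.0124% of the reads in Cur gel 4 to 1.95% in ZNP gel 5. Acta1, the actin of the skeletal muscle thin filament, had 86303 to 426205 normalized counts in the EP group and 4447 to 76469 in the Sham group. In bulk tissue fewer muscle fibres and less muscle RNA per fibre cannot be told apart.

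The stretches just before the start sites of Ckm, Pygm, Pgam2 and Mb are shown as examples. They are the 120 bases before the start in RefSeq (GRCr8). Capitals mark the E-box CANNTG, which muscle regulatory factors bind, and the letters TATAAA. The stretches of Pfkm, Eno3 and Ampd1 are not shown, and that of Pfkm holds no E-box. All the genes described here varied together from library to library, which does not set the genes shown apart. Whether E-boxes have a part in this shared variation was not tested.
Ckm, chr1:88189341-88189460, plus strand: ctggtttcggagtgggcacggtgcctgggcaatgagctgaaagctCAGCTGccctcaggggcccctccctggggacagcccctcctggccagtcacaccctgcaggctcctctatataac
Pygm, chr1:213119685-213119804, plus strand: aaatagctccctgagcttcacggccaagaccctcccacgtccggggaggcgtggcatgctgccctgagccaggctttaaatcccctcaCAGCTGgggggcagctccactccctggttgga
Pgam2, chr14:84897875-84897994, minus strand: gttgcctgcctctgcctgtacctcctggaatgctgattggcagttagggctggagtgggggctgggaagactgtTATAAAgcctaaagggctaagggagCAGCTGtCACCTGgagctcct
Mb, chr7:110647743-110647862, minus strand: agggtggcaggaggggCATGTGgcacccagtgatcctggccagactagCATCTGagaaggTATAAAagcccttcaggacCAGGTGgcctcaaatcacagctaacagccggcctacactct

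RefSeq promoters were matched by symbol for 7 of the 9 genes, and Slc2a4 and Nt5c1a were not in that table. Over the 250 bases before the start, read on both strands, CANNTG was found in 6 of the 7 promoters (not in that of Pfkm) and in 65.54% of all 33469 promoters. Its form CAGCTG was found in those of Ckm, Pygm and Pgam2 and in 11.97% of all promoters. TATAAA was found in those of Pgam2, Mb and Ampd1 and in 12.93% of all. A MEF2 site was found in that of Ampd1 alone and in 2.96% of all promoters, and it overlapped the letters TATAAA there. These matches describe letters in a window and not bound factors.

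Ckm encodes the creatine kinase of muscle, which rebuilds ATP from phosphocreatine, and its transcript ran over chr1:80321585-80331841 (plus strand, Rnor_6.0). Its normalized counts were 249632, 200766, 61602, 128443 and 118166 in EP 1 to EP 5, against 80894, 16468, 41353, 3248 and 2535 in Sham 1 to Sham 5. EP 3 lay below Sham 1, the other 4 EP libraries lay above all Sham libraries, and Sham 4 and Sham 5 were far below the other Sham rats. The log2 fold change was 3.33 (SE 1.23, limma adjusted p = 0.0369). All fold changes are differences of mean log2(normalized count + 1), and a gene is said to have risen or fallen at an adjusted p under 0.05 over all genes.

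The EP group had higher levels of 8 of the 9 genes than the Sham group by this test, whereas 18.8% of all genes tested were higher. These 8 are not independent results, since the genes varied together from rat to rat and were chosen with earlier results known. The median log2 fold change was 3.16 over the 9 genes (2.43 to 5.22) and 0.01 over all genes. Every EP library lay above every Sham library for 6 of them, Pygm, Pfkm, Ampd1, Nt5c1a, Slc2a4 and Mb, as for 8.07% of all genes. The gene that did not pass was Pgam2. edgeR called 7 of the 9 and DESeq2 all 9, and they called 37% and 42.5% of all genes in either direction.

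**Figure D1:**
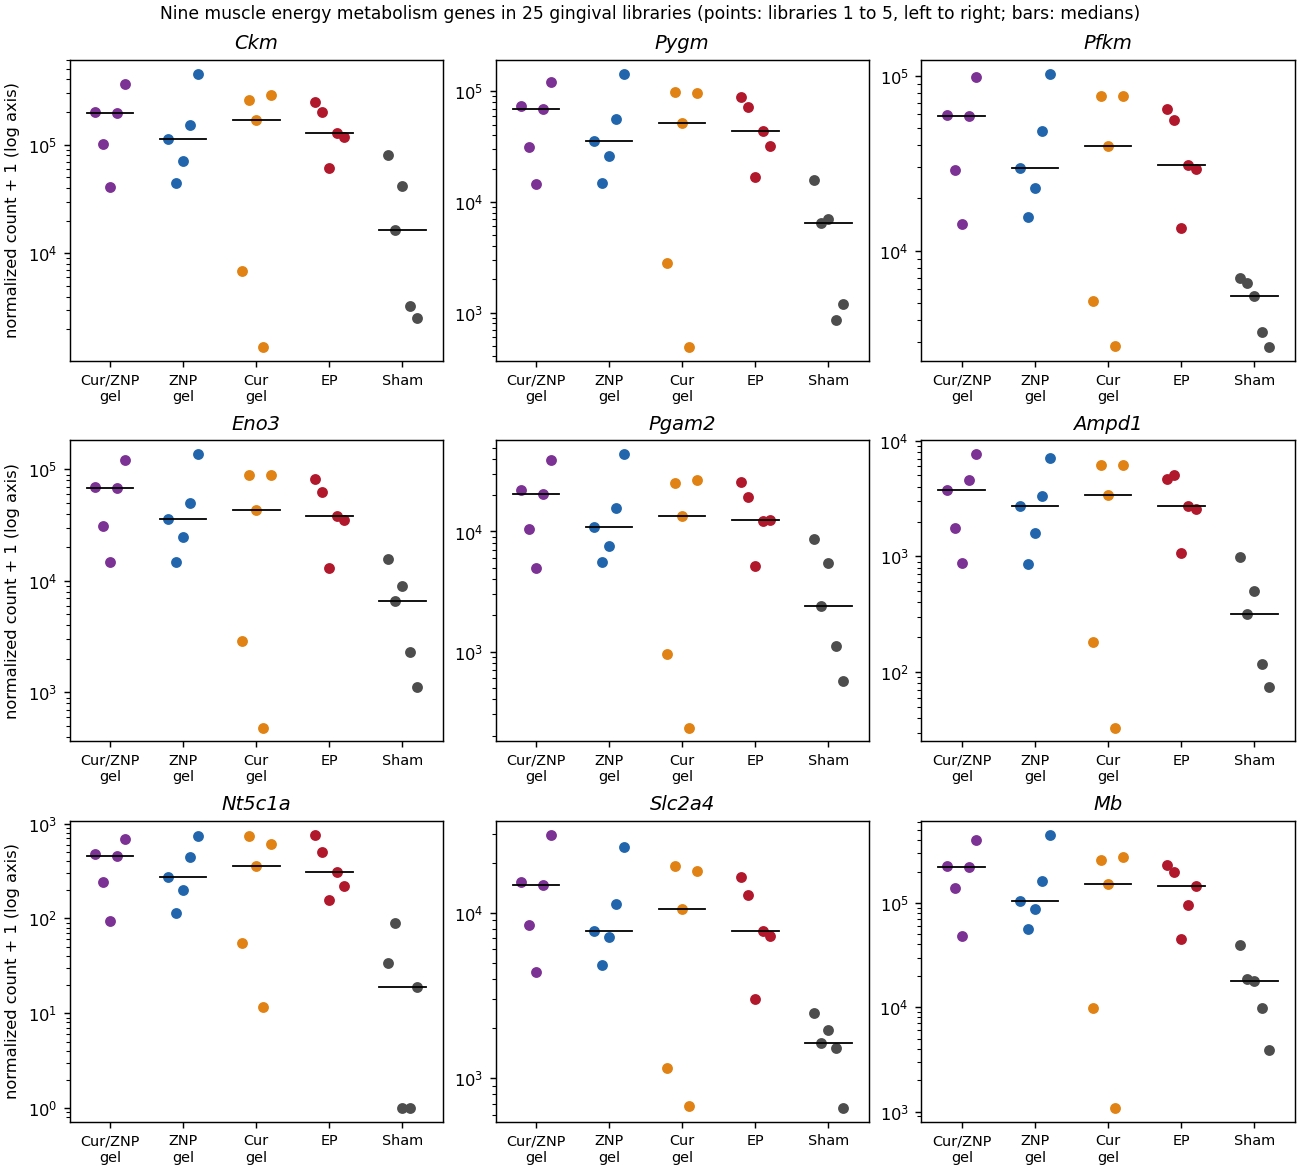
Normalized counts of the 9 genes on a log axis (with 1 added), in the Cur/ZNP gel, ZNP gel, Cur gel, EP and Sham groups from left to right. Points are the libraries 1 to 5 of each group and bars the group medians. The Sham median is the lowest in each panel, and Cur gel 1 and Cur gel 4 (Ckm at 6918 and 1365) sit among or below them.

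Pygm encodes the glycogen phosphorylase of muscle, which releases glucose units from glycogen (chr1:221756286-221771143, plus strand). It had 89492, 72281, 16647, 43681 and 32388 normalized counts in EP 1 to EP 5, against 15927, 6391, 6972, 860 and 1181 in Sham 1 to Sham 5. The groups met without overlapping, with EP 3 just above Sham 1. Pygm rose by a log2 fold change of 3.54 (SE 1.18, limma adjusted p = 0.0221).

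Pfkm encodes the muscle form of phosphofructokinase, the step at which glycolysis is controlled (chr7:139698148-139722132, plus strand, for the transcript that held 99.83% of its total). Its normalized counts were 64711, 55575, 13558, 30676 and 29374 in EP 1 to EP 5, against 6944, 6498, 5532, 3421 and 2803 in Sham 1 to Sham 5. The lowest EP library was clearly above the highest Sham library, and the Sham libraries were close to each other. Pfkm rose by a log2 fold change of 2.83 (SE 0.78, limma adjusted p = 0.0076).

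Eno3 encodes the enolase of muscle, near the end of glycolysis (chr10:57278307-57283653, plus strand). It had 82428, 63378, 13059, 37937 and 35254 normalized counts in EP 1 to EP 5, against 15838, 6641, 9054, 2289 and 1125 in Sham 1 to Sham 5. EP 3 lay below Sham 1, so the groups overlapped by that pair. Eno3 rose by a log2 fold change of 3.04 (SE 1.13, limma adjusted p = 0.0385).

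Pgam2 encodes the muscle phosphoglycerate mutase, the enzyme just before enolase (chr14:86044969-86047162, minus strand). Its normalized counts were 25760, 19552, 5136, 12310 and 12505 in EP 1 to EP 5, against 8625, 2380, 5503, 1118 and 571 in Sham 1 to Sham 5. EP 3 lay below Sham 1 and Sham 3. Its log2 fold change of 2.49 (SE 1.06) did not pass in limma (adjusted p = 0.0695), whereas it did in DESeq2.

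Ampd1 encodes the AMP deaminase of muscle, which turns AMP into IMP (chr2:205568935-205590021, plus strand). It had 4695, 5004, 1063, 2740 and 2574 normalized counts in EP 1 to EP 5, against 977, 314, 504, 116 and 73.7 in Sham 1 to Sham 5. The groups did not overlap, by a narrow margin between EP 3 and Sham 1. Ampd1 rose by a log2 fold change of 3.40 (SE 1.13, limma adjusted p = 0.0220).

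Nt5c1a encodes a cytosolic nucleotidase that takes the phosphate from AMP, and it was the least counted of the 9 (chr5:140888973-140904207, plus strand). It had 765, 500, 154, 310 and 217 normalized counts in EP 1 to EP 5, against 32.7, 88.9, 0, 0 and 17.7 in Sham 1 to Sham 5. Every EP library lay above every Sham library, and 2 Sham libraries had no read at all. Nt5c1a rose by a log2 fold change of 5.22 (SE 1.17, limma adjusted p = 0.00189), which depends on the value added before the logarithm (4.21 with 5 in place of 1), and the group means stood at a ratio of 14.0.

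Slc2a4 encodes GLUT4, the insulin-regulated glucose transporter of muscle and fat (chr10:56552983-56558487, minus strand). Its normalized counts were 16443, 12851, 3017, 7743 and 7272 in EP 1 to EP 5, against 2471, 1636, 1960, 1531 and 660 in Sham 1 to Sham 5. The groups did not overlap. Slc2a4 rose by a log2 fold change of 2.43 (SE 0.79, limma adjusted p = 0.0190).

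Mb encodes myoglobin, the oxygen store of muscle fibres (chr7:118101634-118108864, minus strand). It had 230617, 199015, 45140, 95913 and 145791 normalized counts in EP 1 to EP 5, against 39795, 18718, 17767, 9960 and 3913 in Sham 1 to Sham 5. The groups did not overlap, with EP 3 just above Sham 1. Mb rose by a log2 fold change of 3.16 (SE 1.13, limma adjusted p = 0.0314).

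Single rats decided several of these calls. Of the 9 genes, 4 were called without Sham 4, 3 without Sham 5, 3 without EP 1, 3 without EP 2 and 5 without EP 5, and 3 were called when the nasal-rich libraries Sham 4, EP 3 and EP 4 were left out together. In these 6 fits 28% to 39.2% of all genes were called in either direction, and 3 of 9 is near that share. The share called higher is smaller: in the main fit 37.6% were called in either direction and 18.8% higher. It was not worked out for these 6 fits. Pfkm and Nt5c1a were called in each of the 21 alternative fits of this comparison, with an adjusted p of at most 0.0224 for Pfkm and 0.025 for Nt5c1a.

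The comparisons of the gels with Sham ask whether treated gingiva differed from gingiva without periodontitis. They share the Sham libraries with each other and with the comparison above, so they are not independent of it. With Cur/ZNP gel all 9 genes were higher than in Sham gingiva, and 20.2% of all genes tested were higher. The median log2 fold change was 3.40 (2.73 for Pgam2 to 5.16 for Nt5c1a). Every Cur/ZNP gel library lay above every Sham library for Pfkm, Nt5c1a, Slc2a4 and Mb, as for 9.49% of all genes. edgeR called 8 of the 9 and DESeq2 all 9 (39.6% and 44.9% of all genes, in either direction). In limma 5 were called without Cur/ZNP gel 5, when 32.1% of all genes were called in either direction.

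In the ZNP gel group 7 of the 9 genes were higher than in the Sham group, whereas 16.7% of all genes tested were higher. The median log2 fold change was 3.14. Ckm (3.14, SE 1.23, limma adjusted p = 0.0541) and Pgam2 (2.42, SE 1.06, adjusted p = 0.0836) did not pass. Every ZNP gel library lay above every Sham library for Pfkm, Nt5c1a, Slc2a4 and Mb, as for 7.03% of all genes. edgeR called 7 and DESeq2 all 9 of the genes (32.6% and 38.9% of all genes, in either direction). In limma 3 were called without Sham 4, without Sham 5, without ZNP gel 4 or without ZNP gel 5. In these 4 fits 24.8% to 35.5% of all genes were called in either direction. That is again near 3 of 9, but it counts genes that fell as well as genes that rose.

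In the Cur gel group only Pfkm and Nt5c1a were higher than in the Sham group in limma, and 18.9% of all genes tested were higher. Ckm had 6918, 256083, 167769, 1365 and 289122 normalized counts in Cur gel 1 to Cur gel 5, against the Sham values of 2535 to 80894 given above. Cur gel 2, 3 and 5 lay above all Sham libraries, and Cur gel 1 and Cur gel 4 lay within or below the Sham range. The same 3 libraries lay above all Sham libraries for each of the 9 genes, and the group overlapped Sham for all 9, whereas 8.84% of all genes did not overlap in this direction.

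Pfkm had 5167, 76557, 39824, 2849 and 76478 normalized counts in Cur gel 1 to Cur gel 5, and its log2 fold change against Sham was 2.10 (SE 0.78, limma adjusted p = 0.0391). Nt5c1a had 54.0, 743, 356, 10.7 and 614 in the same libraries, with a log2 fold change of 4.17 (SE 1.17, adjusted p = 0.00815). For both genes Cur gel 4 was the lowest of the 5 and Cur gel 1 the next. The other 7 genes had log2 fold changes of 0.97 (Pgam2) to 1.97 (Pygm) and did not pass.

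The count in this comparison depended on the method and on single rats. edgeR, which compares group means rather than means of logarithms, called 7 of the 9 genes and DESeq2 all 9. They called 40.8% and 45.7% of all genes, and the shares in this paragraph count either direction. In limma 8 were called without Cur gel 4 (36.7% of all genes). Without Cur gel 2, 3 or 5 or without Sham 1, 3, 4 or 5, 1 (Nt5c1a) was called (29.4% to 40.4%). With the Cur gel and Sham libraries alone in the fit 0 were called (20.9% of all genes, edgeR and DESeq2 above).

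**Figure D2:**
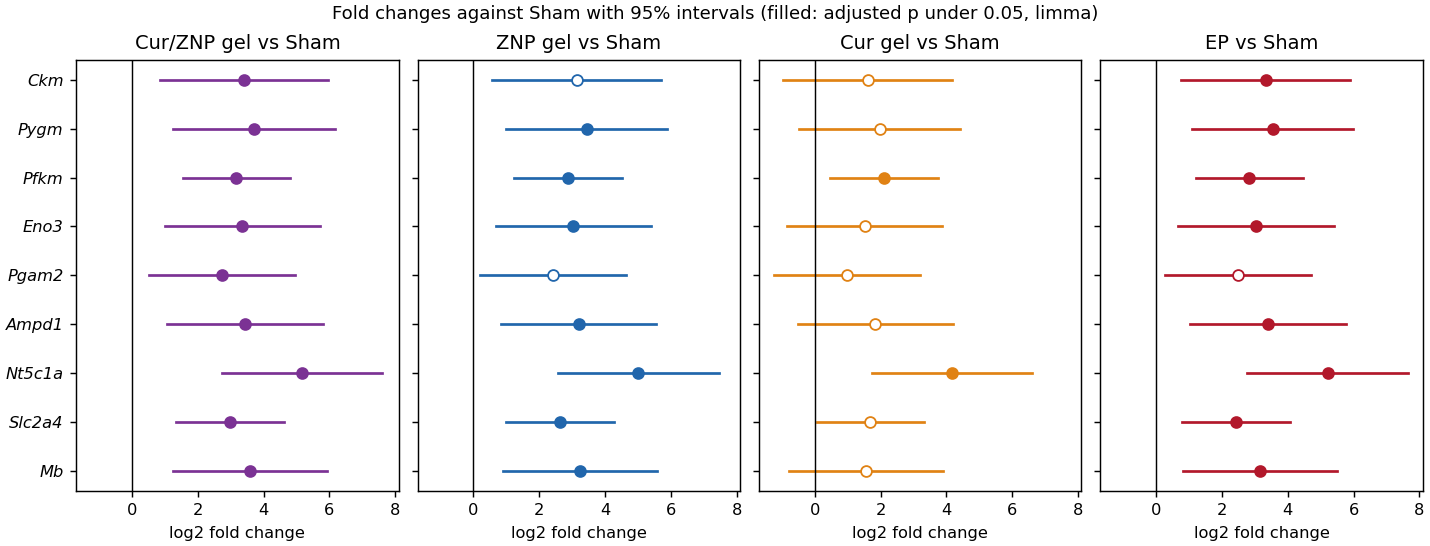
Log2 fold change of each gene against Sham in limma, for the Cur/ZNP gel, ZNP gel, Cur gel and EP groups from left to right. Lines are 95% intervals (SE with 20 degrees of freedom), and filled points passed an adjusted p of 0.05. Nt5c1a has the largest estimate in each panel (4.17 to 5.22), and the Cur gel estimates are the smallest of the 4 panels.

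No gel group was told apart from the EP group by these genes. In Cur gel against EP 0 of the 9 genes passed in limma (0 at an unadjusted p under 0.05, 0 in edgeR, 0 in DESeq2), and 0% of all genes did. Ckm had a log2 difference of -1.73 (95% interval -4.29 to 0.84), which was -0.08 in edgeR and in DESeq2 and -0.50 without Cur gel 4. Over the 9 genes the log2 differences ran from -1.73 to -0.73, and their 95% intervals reached from -4.29 to 1.39.

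In ZNP gel against EP the log2 differences ran from -0.20 to 0.21, with intervals from -2.75 to 2.43. Again 0 of the 9 genes passed in limma (0 at an unadjusted p under 0.05, 0 in edgeR, 0 in DESeq2), and 0.00621% of all genes did. In Cur/ZNP gel against EP the differences ran from -0.05 (Nt5c1a) to 0.55 (Slc2a4), with intervals from -2.50 to 2.78. Here too 0 of the 9 passed in each of these tests, and 0% of all genes did in limma.

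Ckm had 198571, 102024, 41144, 197292 and 363884 normalized counts in Cur/ZNP gel 1 to 5, and 112886, 44637, 71358, 151230 and 450792 in ZNP gel 1 to 5. Both groups covered the whole range of the EP group, from 61602 to 249632, and went beyond it at both ends. Rats of 1 group thus differed by up to 10.1-fold with ZNP gel and 8.84-fold with Cur/ZNP gel, against 4.05-fold with EP.

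The gels were also set against each other. Cur/ZNP gel minus Cur gel gave log2 differences from 1.00 to 2.03 with 95% intervals from -1.44 to 4.38. Cur/ZNP gel minus ZNP gel gave 0.15 to 0.35 with intervals from -2.31 to 2.82. ZNP gel minus Cur gel gave 0.78 to 1.68 with intervals from -1.59 to 4.11. In each of the 3 comparisons 0 of the 9 genes and 0% of all genes passed in limma, with 0 of the 9 at an unadjusted p under 0.05, in edgeR and in DESeq2. The intervals leave room for differences of several fold in either direction.

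The 9 genes varied together from rat to rat. Over the 20 libraries with ligature, the correlation of log2 values between any pair of them lay between 0.96 (Pfkm and Mb) and 1.00 (Eno3 and Pgam2). They also followed the sarcomere, the contractile apparatus, as measured by the mean log2 value of 16 of its genes. The mean of the 9 genes had r = 0.99 and rho = 0.96 with the sarcomere mean over these 20 libraries, and r = 0.96 without Cur gel 1 and Cur gel 4. Over deviations from the group means in all 25 libraries r was 0.98 and rho 0.94, and r was 0.97 without Cur gel 4 and Cur gel 5. These are descriptions of genes that share libraries and scaling.

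The fitted slope on the sarcomere mean was not the same for all the genes. Per log2 unit of sarcomere mean over the libraries with ligature, Ckm moved by 1.02 log2 units, Mb by 1.01, Pygm by 1.00, Eno3 by 0.99, Ampd1 by 0.98 and Pgam2 by 0.92. Nt5c1a moved by 0.76, Slc2a4 by 0.69 and Pfkm by 0.68. Cur gel 4 and Cur gel 1 weigh heavily in these slopes, with sarcomere means of 7.69 and 9.99. The other libraries with ligature had 12.1 to 15.6. In Cur gel 4 and Cur gel 1 Pfkm stood 3.78 and 2.35 above the sarcomere mean, and Slc2a4 1.73 and 0.18. Slopes without these libraries were not worked out. The range was narrower for Slc2a4 and Pfkm as well. Nt5c1a ran from 0 (Sham 3) to 765 (EP 1) normalized counts, so no fold range can be given for it. Between the lowest and the highest of the 25 libraries Mb differed 417-fold, Ckm 330-fold, Pygm 299-fold, Eno3 285-fold, Ampd1 238-fold and Pgam2 190-fold, whereas Slc2a4 differed 44.9-fold and Pfkm 36.6-fold.

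**Figure D3:**
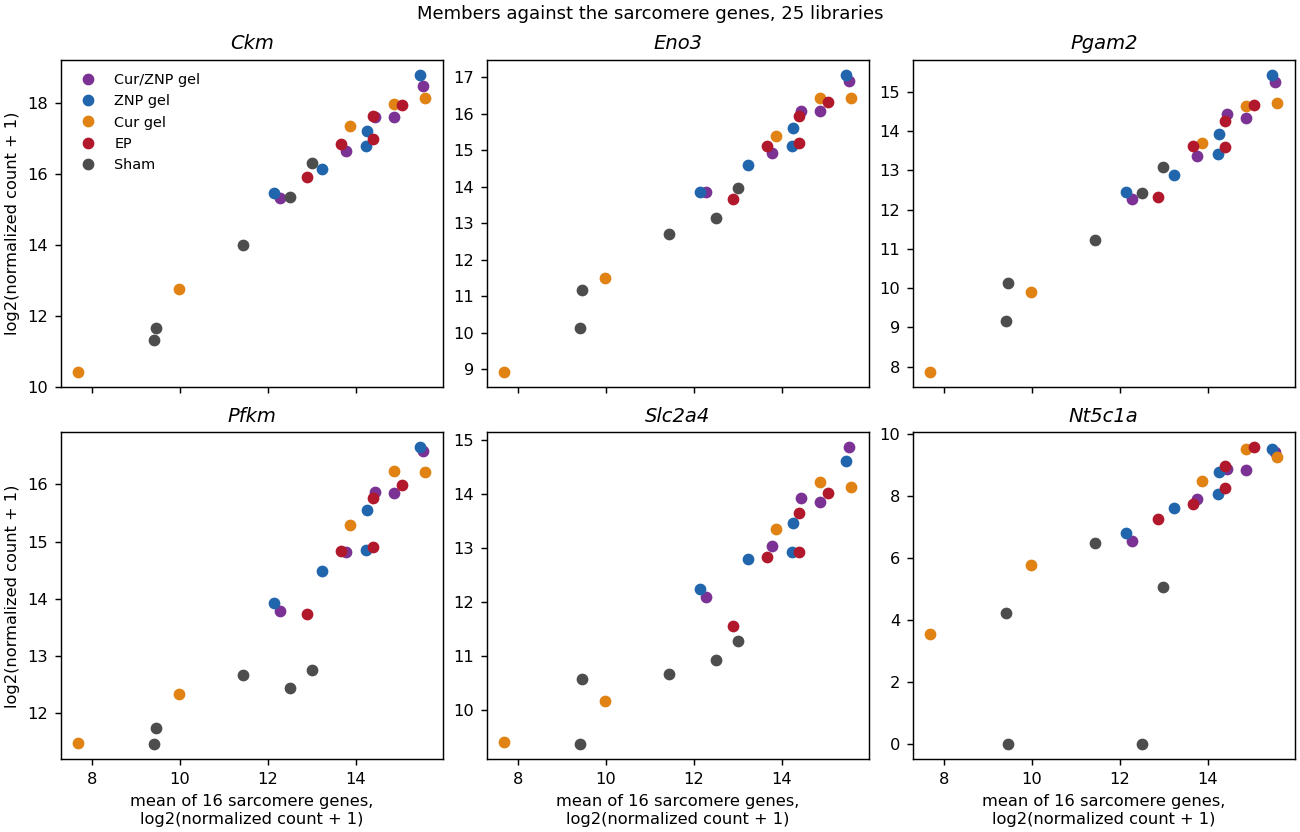
Log2(normalized count + 1) of 6 of the genes against the mean of 16 sarcomere genes on the same scale, 1 point per library and 1 colour per group. Ckm, Eno3 and Pgam2 of all groups lie near 1 line, whereas Pfkm of Sham 1 and Sham 3 (6944 and 5532 normalized counts) lies below the libraries with ligature nearest to them in sarcomere level, and Nt5c1a is at 0 in Sham 3 and Sham 4.

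The sarcomere genes differed between the groups in the same direction as the 9 genes. Of 16 measured on the list (5 had no match), 8 rose in EP relative to Sham and 0 fell, with a median log2 fold change of 2.95. Myot (3.69), Ryr1 (3.53), Actn2 (3.97) and Neb (3.55) had the smallest p, and Myh7 (1.28) and Tnnt1 (1.53) did not pass. The summed level was 393529 to 2044296 normalized counts in EP and 27288 to 440460 in Sham. In the gels 9 of 16 were higher than in Sham with Cur/ZNP gel, 6 with ZNP gel (8 in edgeR, 12 in DESeq2) and 0 with Cur gel (0 at an unadjusted p under 0.05, 6 in edgeR, 10 in DESeq2).

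With the sarcomere mean as a covariate, which compares the groups at an equal level of these 16 genes, most differences became small. In EP against Sham the log2 fold change of Ckm was then 0.25 (limma adjusted p = 0.448), that of Eno3 0.21 (0.517), that of Mb 0.40 (0.401) and that of Pgam2 -0.18 (0.558), a change of sign. Pygm had 0.59 (0.0591) and Slc2a4 0.55 (0.179). Pfkm (0.95, adjusted p = 0.0198), Nt5c1a (3.13, 0.0178) and Ampd1 (0.56, 0.0453) remained past the threshold.

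Pfkm and Nt5c1a also passed with this covariate in the 3 gels against Sham. Pfkm had log2 fold changes of 1.22 with Cur/ZNP gel (limma adjusted p = 0.00621), 1.14 with ZNP gel (0.0097) and 1.296 with Cur gel (0.0011). Slc2a4 passed in the same 3 comparisons, at 1.04 (0.0185), 0.90 (0.0361) and 0.89 (0.0159), as did Pygm at 0.66 (0.0424), 0.70 (0.0298) and 0.71 (0.0117). Ckm, Eno3, Pgam2 and Mb passed in none of the 4 comparisons with Sham once the covariate was in the fit. In total 4 of the 9 genes were then called with Cur/ZNP gel, 5 with ZNP gel, 5 with Cur gel and 3 in EP. In the same fits 28.5%, 26.4%, 40.3% and 33.2% of all genes were called in either direction, in that order. The count in EP is near this share, which includes genes that fell.

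These calls rest on the fitted slope, which is common to all groups, and the Sham libraries covered only the lower part of the sarcomere range. The plain difference between the log2 value of a gene and the sarcomere mean did not separate the groups for Slc2a4 or Pfkm. For Slc2a4 it averaged -0.62 ± 0.31 with Cur/ZNP gel, -0.65 ± 0.52 with ZNP gel, -0.14 ± 1.19 with Cur gel and -1.08 ± 0.31 in EP, against -0.59 ± 1.17 in Sham (SD, n = 5 each). For Pfkm it averaged 1.21 ± 0.25 with Cur/ZNP gel, 1.23 ± 0.41 with ZNP gel, 1.91 ± 1.21 with Cur gel and 0.98 ± 0.33 in EP, against 1.05 ± 1.16 in Sham. The EP mean was thus below the Sham mean for both genes, and for each gene the ranges of EP and Sham overlapped. This difference takes a slope of 1, whereas over the libraries with ligature the slope was 0.69 for Slc2a4 and 0.68 for Pfkm, and it was not tested. For Nt5c1a the same difference, also not tested, averaged -5.69 ± 0.29 in EP against -8.00 ± 3.15 in Sham. Sham 3 and Sham 4, without a read, had -12.5 and -9.46, and Sham 1 had -7.91. Sham 2 and Sham 5, at -4.94 and -5.18, lay above every EP library (-6.10 to -5.41). Pygm and Ampd1, with slopes of 1.00 and 0.98, had a higher mean difference in each group with ligature than in Sham. For Pygm the mean was 1.41 ± 0.23 with Cur/ZNP gel, 1.45 ± 0.34 with ZNP gel and 1.43 ± 0.34 with Cur gel. It was 1.33 ± 0.28 in EP and 0.71 ± 0.42 in Sham. For Ampd1 it was -2.61 ± 0.38 in EP and -3.10 ± 0.34 in Sham. Each range overlapped that of Sham, and these differences were not tested either.

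Of the other genes of muscle energy supply, 16 of the 19 measured rose in EP relative to Sham and 0 fell, with a median log2 fold change of 2.996 (2 of 21 entries had no match, 1 of them a second symbol of Adssl1). The smallest p were those of Prkaa2, a catalytic subunit of AMP-activated protein kinase (3.13, SE 0.50), Ppargc1a, a coactivator of mitochondrial genes (3.16, SE 0.62), Fbp2, the fructose bisphosphatase of muscle (1.98, SE 0.44), and Pdk4, a kinase that holds back pyruvate dehydrogenase (3.60, SE 0.81). Cox7a1 (1.05, limma adjusted p = 0.158) and Cox8b (2.68, 0.0886), both subunits of cytochrome oxidase, had the largest p. In the gels 18 of 19 were higher than in Sham with Cur/ZNP gel, 14 with ZNP gel and 6 with Cur gel in limma. For Cur gel edgeR called 17 and DESeq2 all 19.

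Of the isoforms that other tissues use, more fell than rose. Among 14 measured, 7 fell in EP relative to Sham and 1 rose, with a median log2 fold change of -0.35. Nt5c, a nucleotidase of broad distribution, fell by 1.25 on the log2 scale (SE 0.19), and Ckb, the brain-type creatine kinase, fell by 0.83 (SE 0.14). Slc2a1, which encodes the glucose transporter GLUT1, fell by 1.02 (SE 0.22). Pygb, the brain-type glycogen phosphorylase, rose by 1.45 (SE 0.30), and Pygl, the liver form, had a difference of 0.03 (SE 0.30). Of these 14 genes 8 were lower and 1 higher with Cur gel, 7 and 1 with ZNP gel, and 6 and 3 with Cur/ZNP gel, each against Sham.

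The range of these isoforms over the 25 libraries was narrower than that of their muscle counterparts for the 10 of them that were set beside one. Between the lowest and highest library Pygb differed 7.07-fold, Pfkl 5.72-fold, Pfkp 4.00-fold, Slc2a1 3.62-fold and Pygl 3.53-fold. Eno1 differed 2.77-fold, Ckb 2.70-fold, Ampd3 2.35-fold, Pgam1 1.99-fold and Ampd2 1.71-fold. Their slopes on the sarcomere mean over the libraries with ligature lay between -0.11 (Pygl) and 0.03 (Ckb).

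The ratio of normalized counts within such a pair does not depend on the scaling of a library. Counts were not divided by transcript length, so only its change between libraries can be read. Ckm over Ckb was 31.4, 37.8, 11.6, 23.8 and 14.9 in EP 1 to EP 5, against 7.22, 1.33, 2.88, 0.349 and 0.278 in Sham 1 to Sham 5. The groups did not overlap. Pfkm over Pfkp, the platelet form, was 29.1, 34.0, 8.77, 11.9 and 10.8 in EP 1 to EP 5, against 1.63, 1.42, 0.895, 1.67 and 0.820 in Sham 1 to Sham 5. The groups did not overlap in this ratio. Over Pfkl, the liver form, they did, at 1.60 to 21.2 in EP against 0.452 to 2.20 in Sham. Pfkp itself fell in EP relative to Sham (log2 fold change -0.88, limma adjusted p = 0.00528), as Ckb did. The ratios to these 2 genes therefore reflect both members of the pair.

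Pygm over Pygl ranged from 7.23 to 64.4 in EP, against 0.647 to 6.83 in Sham. Over Pygb, which itself rose, it ranged from 3.93 to 42.1 in EP, against 0.659 to 20.5 in Sham. The groups overlapped in the ratio to Pygb and not in the ratio to Pygl. Ampd1 over Ampd3, an AMP deaminase found in red cells, ranged from 0.617 to 3.18 in EP, against 0.0405 to 0.491 in Sham. Over Ampd2 it ranged from 0.638 to 2.53 in EP, against 0.0298 to 0.400 in Sham, and neither ratio overlapped.

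Slc2a4 over Slc2a1 had medians of 4.12 with Cur/ZNP gel, 1.84 with ZNP gel, 2.61 with Cur gel and 1.90 in EP, against 0.171 in Sham. Its Sham range of 0.0773 to 0.281 was overlapped by Cur gel alone, whose lowest library had 0.142. Eno3 over Eno1 ranged from 0.763 to 4.76 in EP, against 0.0478 to 0.573 in Sham. For Pgam2 over Pgam1 the ranges overlapped, 0.415 to 2.40 in EP against 0.0378 to 0.559 in Sham. Eno1 (log2 fold change -0.59, limma adjusted p = 0.00132) and Pgam1 (-0.42, 0.00828) fell in EP relative to Sham, as Slc2a1 did. These ratios too reflect both members of the pair.

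**Figure D4:**
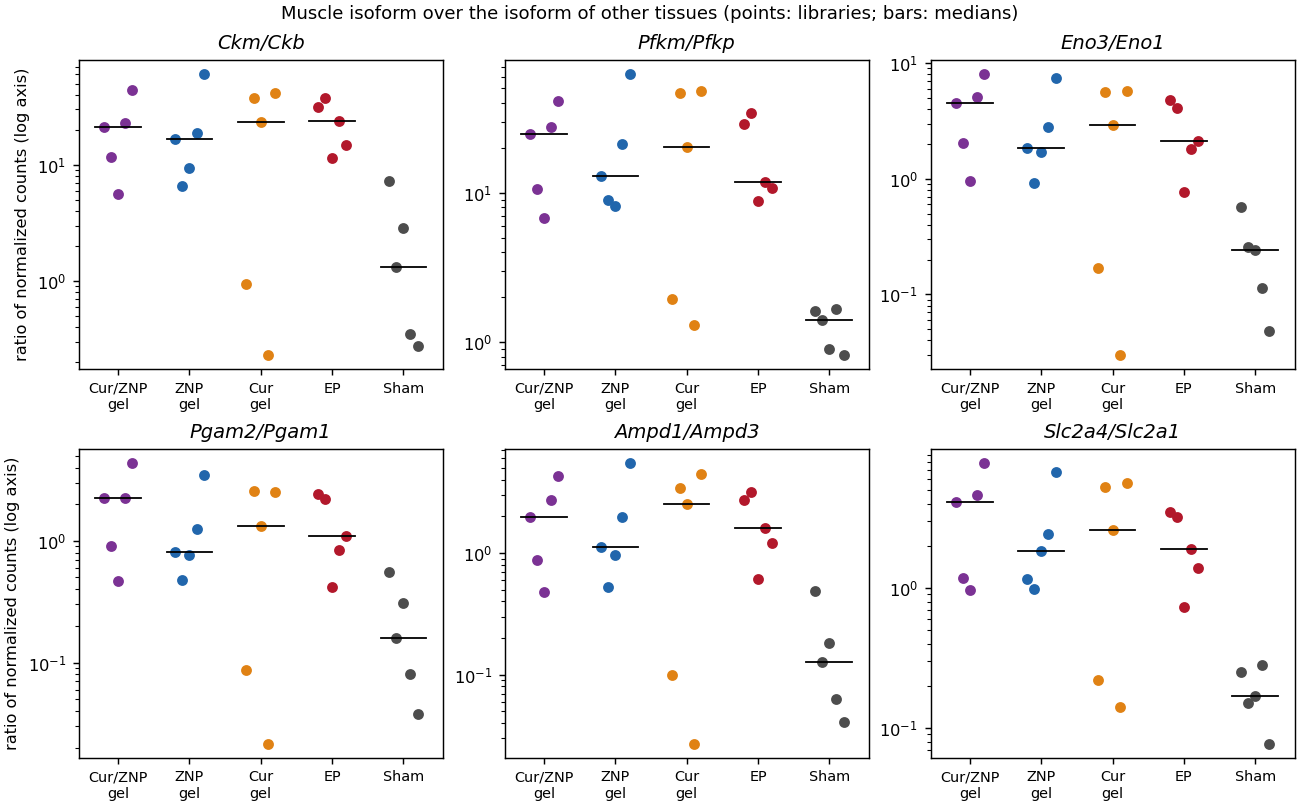
Ratio of the normalized count of a muscle isoform to that of an isoform of other tissues, on a log axis, for 6 pairs. Points are libraries 1 to 5 of the Cur/ZNP gel, ZNP gel, Cur gel, EP and Sham groups from left to right, and bars are medians. Slc2a4 over Slc2a1 is at least 0.729 in every EP library and at most 0.281 in every Sham library, and Cur gel 1 and Cur gel 4 lie apart from the rest of their group.

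Hk2, on the list of shared glycolysis and glycogen genes, is a hexokinase of insulin-sensitive tissues and so not shared evenly by all tissues. It rose in EP relative to Sham by a log2 fold change of 1.46 (SE 0.30, limma adjusted p = 0.00107). Gbe1, which branches glycogen, rose by 1.42 (SE 0.40, adjusted p = 0.0091). Hk1, the hexokinase of most tissues, had a difference of -0.04 (SE 0.18) and Pgk1, a phosphoglycerate kinase, one of 0.16 (SE 0.29), and neither passed.

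The genes whose pattern over the 20 libraries with ligature was most like the mean of the 9 were, among 14307 with a symbol and a mean log2 CPM of at least 1, Adssl1 (r = 0.9992), Hrc, Tmem38a, Unc45b, Rtn2, Tnnt3, Ldb3, Scn4b, Srl and Asb12 (r = 0.9968). Adssl1 encodes the adenylosuccinate synthase of muscle, Hrc and Srl encode calcium-binding proteins of the sarcoplasmic reticulum, and Unc45b a chaperone of myosin. Over deviations from the group means in 25 libraries their r ranged from 0.9370 (Asb12) to 0.9965 (Hrc). In EP against Sham their log2 fold changes ran from 2.59 (Rtn2) to 4.14 (Asb12). Ckb ranked 3564th by the same measure, with r = 0.32.

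Other cell types also differed between the groups. All 4 erythroid genes rose in EP relative to Sham (summed level 7639 to 16932 normalized counts in EP and 1712 to 5403 in Sham), and Hbb, a beta globin, had 3967 to 9861 normalized counts in EP and 795 to 2238 in Sham. Of 4 tested genes of autonomic neurons 3 fell (summed level 5.64 to 72.9 in EP and 172 to 77418 in Sham), with Vip, a neuropeptide, at 0 to 35.9 in EP and 79.6 to 57245 in Sham. Of 6 smooth muscle genes 1 rose, Des, which skeletal muscle also makes. Of 6 keratinocyte genes 1 fell, Krt5, and of 4 fibroblast genes 1 rose, Dcn. Among 4 leukocyte genes and the 5 nasal gland genes 0 passed (limma, 0 at an unadjusted p under 0.05, 0 in edgeR, 0 in DESeq2). Among 4 salivary gland genes 0 passed (limma, 1 at an unadjusted p under 0.05, 1 in edgeR, 1 in DESeq2). The part of these cells in the results of the 9 genes was not tested.

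Heart muscle is another tissue that makes several of the 9 genes, and its atrial markers were at or near 0. Of 4 heart genes tested 0 passed in EP against Sham (limma, 1 at an unadjusted p under 0.05, 1 in edgeR, 1 in DESeq2), with summed levels of 966 to 3992 normalized counts in EP and 2104 to 5582 in Sham. Nppa and Myl7, of the atrium, were at 0 in all EP libraries and reached at most 10.5 and 10.2 normalized counts in any library. Fat also makes GLUT4. Of 6 adipocyte genes 0 passed in EP against Sham (limma, 1 at an unadjusted p under 0.05, 0 in edgeR, 0 in DESeq2), with summed levels of 10107 to 33619 in EP and 4487 to 14293 in Sham. With Cur/ZNP gel 5 of the 6 were higher than in Sham, and 1 each with ZNP gel and Cur gel in limma. DESeq2 called 6 with Cur/ZNP gel, 5 with ZNP gel and 2 with Cur gel, and edgeR 4, 2 and 0, in that order. Their part in the values of Slc2a4 was not tested.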

How the data were processed

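The authors sequenced stranded, ribosome-depleted libraries of total RNA on an Illumina instrument. The deposited signal values were counted for each Ensembl transcript on Rnor_6.0 and scaled by a library size factor, and the submitters' processing notes name DESeq2. The aligner is not given in the sources used here. In every library 100% of the values were a whole number of reads (tolerance 0.01) once its scaling was undone, and depths and count tests use those reads. The 41078 transcripts, beside 840 blank rows, were summed to 30547 genes, with a symbol on several chromosomes kept apart.

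The 25 libraries entered a single limma model (version 3.58.1, under R 4.3.3) of log2(normalized count + 1) for 16092 genes, in which the variance prior followed a robust trend, and p-values were adjusted by Benjamini-Hochberg (two-sided). edgeR had been intended for counts. edgeR 4.0.16 and DESeq2 1.42.0 on the reads, other filters, pseudocounts of 0.5 and 5, TMM scaling, the 2 groups alone, a replicate block, the sarcomere mean as a covariate and leaving out libraries were alternatives. The genes and lists were chosen with earlier results of these data known. The rule named, of each list, up to 4 genes with the smallest p in EP against Sham among those that passed and up to 2 with the largest p, and the 10 genes most like the mean of the 9; Pygl, Pfkl, Eno1, Pgam1, Pfkp, Ampd2, Ampd3, Krt5, Acta1, Vip, Hbb, Nppa and Myl7 were in part chosen after their values were seen. The fit was also run on simulated counts with a common dispersion for all genes and no variation shared between genes. That run could not show how the fit performs for genes that vary as these 9 did. The labels give 6 weeks as age, whereas the methods of the study give an older age. A gene of the shared glycolysis list, and the counts of that list, are not reported here.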

Additional observations from a re-analysis of the deposited data

Results flagged for a closer look

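In the ZNP gel group 1 library stood apart for 4 of the 9 genes, by a gap to the next library that passed Dixon's criterion for 5 values at the 95% level. ZNP gel 5 had 450792 normalized counts of Ckm, 137162 of Eno3, 44058 of Pgam2 and 451958 of Mb, each the highest of its group, with gaps of 0.738, 0.7105, 0.740 and 0.734 of the range. In all 45 groups of 5 values were examined, and chance gives about 1 in 20 where values are normally distributed. The criterion was applied to normalized counts and not to the log2 values used in the fits. On the log2 scale Ckm was 16.8, 15.4, 16.1, 17.2 and 18.8 in ZNP gel 1 to 5, where ZNP gel 5 stands out less. The 4 genes share the library, which also had the highest summed sarcomere level of the 25 (3247973 normalized counts). Without it 3 of the 9 genes passed in ZNP gel against Sham, when 26.1% of all genes were called in either direction.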

How the results depend on the processing

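Of the 9 genes, 9 were called against Sham with Cur/ZNP gel, 7 with ZNP gel, 2 with Cur gel and 8 with EP alone. In these fits 39.7%, 32.1%, 38% and 37.6% of all genes were called in either direction, and the shares below are counted likewise. Without Sham 4, EP 3 and EP 4 the counts of the 9 genes were 4, 3, 1 and 3 (36.6%, 29.5%, 36.5% and 28%). With the sarcomere mean as a covariate they were 4, 5, 5 and 3 (28.5%, 26.4%, 40.3% and 33.2%), in the same order. In Cur gel against Sham the count was 7 in edgeR (40.8%), 9 in DESeq2 (45.7%), 1 without a filter (24.7%) and 0 with these 2 groups alone (20.9%). With 1 library left out the counts ranged from 5 to 9 (Cur/ZNP gel), 3 to 8 (ZNP gel), 1 to 8 (Cur gel) and 3 to 9 (EP). The shares of all genes in those fits ranged from 32% to 45%, 23.2% to 38.5%, 29.4% to 43.3% and 29.8% to 42.2%, in that order. With the covariate Pgam2 changed sign, to -0.0285 (Cur/ZNP gel), -0.0465 (ZNP gel), -0.17 (Cur gel) and -0.18 (EP), and Ckm in Cur gel against EP became 0.0408. The cause of these changes was not tested. Of 756 values of single genes against Sham under all alternatives, 752 were above 0. In the 6 comparisons among EP and gels 0 of the 9 genes were called under every alternative run.

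Rat numbers did not pair the libraries: the correlation of same-numbered deviations ran from -0.392 to 0.506, and 5 of 25 libraries correlated best with their own number. With the replicate block the counts against Sham were 8 (Cur/ZNP gel), 6 (ZNP gel), 2 (Cur gel) and 8 (EP). In these fits 39.2%, 31.8%, 37.4% and 37.1% of all genes were called in either direction. TMM scaling moved the median gene by 0.02. Within a group of 5 rats Ckm differed by 4.05-fold (EP) to 212-fold (Cur gel), which leaves wide intervals, and low counts add error to Nt5c1a (0 to 100 reads in Sham libraries, 12 in Cur gel 4) and Ampd1 (57 reads in Sham 4, 36 in Cur gel 4).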

Other observations

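Pfkm had a second transcript, which began upstream of the main one and held 0.1675% of its total. It had 23 to 313 reads in the 5 Cur/ZNP gel libraries, 0 to 239 with ZNP gel, 0 to 103 with Cur gel and 0 to 132 in EP, against 0 reads in 5 of 5 Sham libraries. No library without this transcript was found in the Cur/ZNP gel group, and 1 was found with ZNP gel, 2 with Cur gel and 1 in EP. Sham libraries had only 1683 to 7309 reads of Pfkm in all, and with so small a share few would belong to this transcript. Cur gel 1 and Cur gel 4, also without it, had 6790 and 3199 reads of Pfkm. EP 4 and ZNP gel 2 lacked it at 20955 and 18061 reads. The difference was not tested.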
